A study of Mus musculus with 24 samples.

Results

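The enzymes that build triglycerides in the liver were followed here as a family of 10 genes, the monoacylglycerol acyltransferases Mogat1 and Mogat2, the glycerol-3-phosphate acyltransferases Gpat3 and Gpam, the acylglycerol phosphate acyltransferases Agpat2 and Agpat3, the lipins Lpin1 and Lpin2, and the diacylglycerol acyltransferases Dgat1 and Dgat2. They were chosen by name, with earlier results of these data known, so their counts beside all probe sets describe the family and do not test it. All 10 were measured, by 12 of the 41345 probe sets of the array, and each gene is given by its probe set with the highest mean signal. Liver RNA of single mice had been hybridised to whole-transcript arrays, and each value is a deposited log2 signal, so that a difference of 1 stands for a doubling. All mice were male C57BL/6J. The tested diets were a high fat diet (HFD) in which oils enriched in EPA and DHA replaced part of the corn oil (HFD-EPA/DHA) and a HFD with more corn oil (HFD-corn oil). Coconut oil was the largest fat source of both HFDs. The control diet held less fat and less coconut oil. Both HFDs also contained added cholesterol and more sucrose than the control diet, so the HFDs and the control diet differed in more than fat. Mice were fed for 8 weeks from 9 weeks of age or for 12 weeks from 10 weeks of age. These were separate experiments, so time and experiment cannot be told apart. Each diet and time had 4 mice, picked on body weight and on triglyceride and cholesterol in plasma. Cages were shared but are not identified. Not every diet was taken on each day of killing, and that day is not given per mouse. The array of HFD-corn oil replicate 3 at 8 weeks stood apart (median correlation with the other arrays 0.9395, against 0.9829 or more for each of the 23 others) and was left out by the study and here.

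Most triglyceride of the liver is made along the glycerol phosphate pathway. A glycerol-3-phosphate acyltransferase joins the first fatty acid to glycerol-3-phosphate, an acylglycerol phosphate acyltransferase adds the next to form phosphatidic acid, a lipin removes the phosphate to give diacylglycerol, and a diacylglycerol acyltransferase adds the last. Monoacylglycerol acyltransferases reach diacylglycerol by another route, from monoacylglycerol. That route is best known from the intestine, and Mogat1 is known to be turned on in the fatty liver of mice.

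A diet comparison was tested with limma in 1 model over the 23 arrays, and p-values were adjusted (Benjamini-Hochberg) for the number of probe sets on the array. A gene that passed an adjusted p of 0.05 is said to be called. Errors of fold changes are standard errors, errors of means are SD, and n counts mice. The mice are separate animals. In RNA of whole liver, fewer cells of a type cannot be told apart from less RNA per cell. Markers of hepatocytes were high on every array, with list means of 12.81 to 12.98. Of the adipocyte, enterocyte, pancreas acinar, skeletal muscle, leukocyte, endothelial, stellate and cholangiocyte marker lists, none held a gene that was called in the mean comparison of either HFD with control. Of the 6 hepatocyte markers, 1 was called lower on HFD-EPA/DHA (Apoa1, −0.28 ± 0.07, limma adjusted p = 0.0443).

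Mogat1 and Gpat3 were higher in livers of HFD-fed mice over the mean of both weeks, by 1.71-fold to 2.13-fold, while Gpam was lower on HFD-EPA/DHA. Over the mean of both weeks, HFD-EPA/DHA vs. control had 2 of the 10 genes called higher (Mogat1 and Gpat3) and 1 called lower (Gpam), where 2.1% of all probe sets were called, 0.774% higher and 1.33% lower. HFD-corn oil vs. control had 2 of the 10 called higher (Mogat1 and Gpat3) and 0 lower, where 1.91% of all probe sets were called, 0.745% higher. The median log2 fold change of the 10 genes was 0.02 on HFD-EPA/DHA, and 0.06 with HFD-corn oil, against −0.0017 and −0.02 over all probe sets. The comparisons share the same control mice. The 7 other genes, for the acylglycerol phosphate step, the lipins, the last step and Mogat2, passed in neither comparison.

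**Figure D1:**
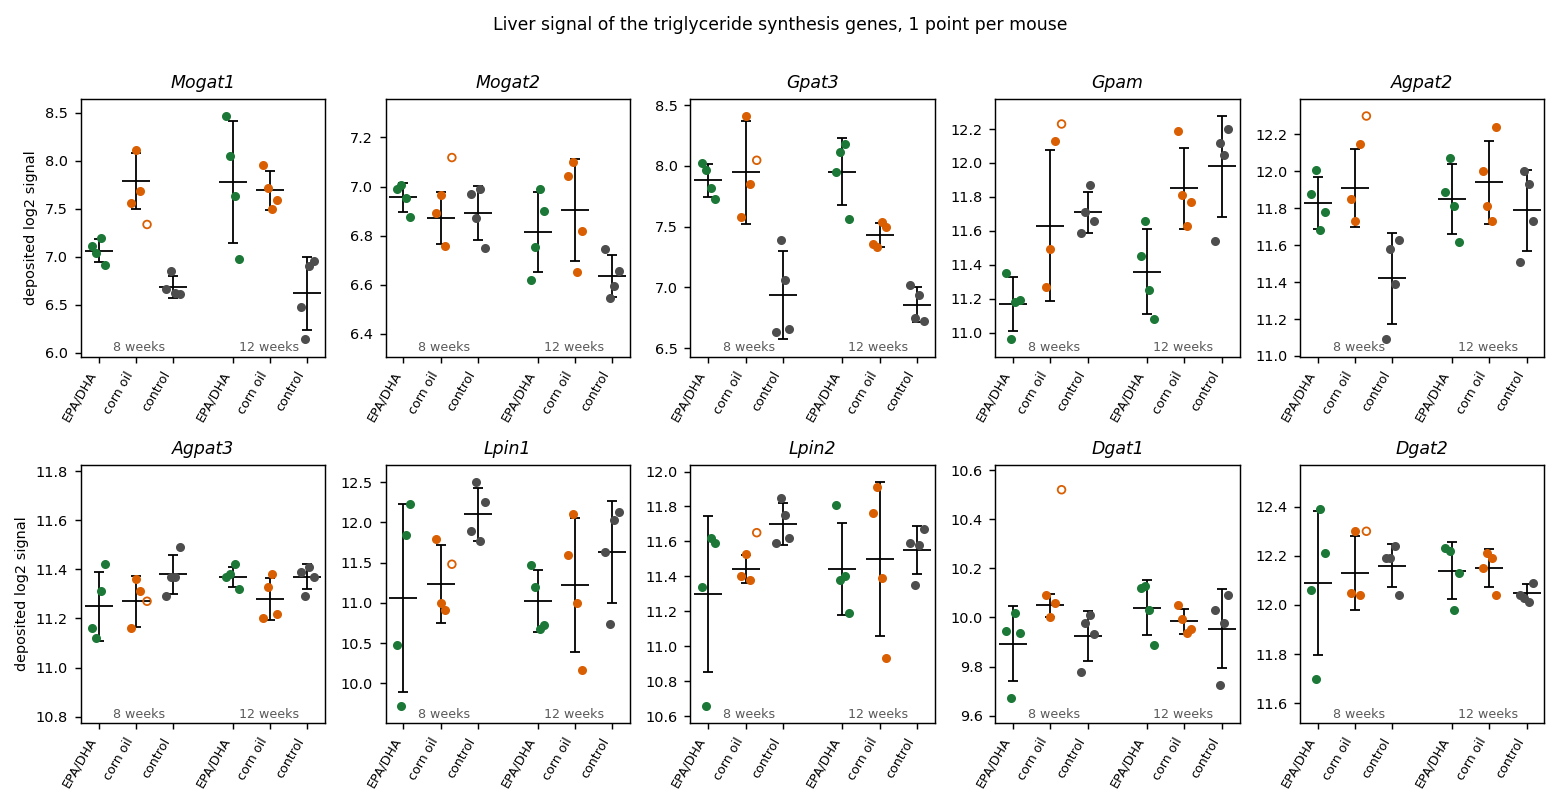
Deposited log2 signal (vertical axis, scaled separately for each gene) of the 10 genes in each mouse, by diet at 8 and at 12 weeks. Points are mice, open circles are the array left out of the tests, and bars are the mean ± SD of the fitted arrays (n = 4, and 3 for HFD-corn oil at 8 weeks). Mogat1 and Gpat3 lay higher on the HFDs than in control livers, and Gpam lay lower on HFD-EPA/DHA. The arrays of Lpin1 spread most widely on HFD-EPA/DHA at 8 weeks and HFD-corn oil at 12 weeks.

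Mogat1 makes diacylglycerol from monoacylglycerol. RefSeq places it at chr1:78511060-78606964 of GRCm38.p6, on the forward strand. Its promoter window and those of the other called genes are shown because these genes changed with diet. Each window runs from 250 bases before to 50 bases after an annotated transcript start, is written 5′ to 3′ on the strand of the gene, and has in capitals the matches to the motifs that were searched. Windows were found for 7 of the 10 genes, 10 windows in all, and none were used here for Mogat2, Dgat1 and Dgat2.
Mogat1 (chr1:78510810-78511109, + strand): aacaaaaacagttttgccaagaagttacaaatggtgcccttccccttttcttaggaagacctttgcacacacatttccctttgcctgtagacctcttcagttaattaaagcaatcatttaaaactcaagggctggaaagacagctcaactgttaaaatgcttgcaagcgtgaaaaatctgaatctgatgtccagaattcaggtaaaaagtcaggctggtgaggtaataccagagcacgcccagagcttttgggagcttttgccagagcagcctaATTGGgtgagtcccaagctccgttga
Gpat3 (chr5:100845979-100846278, + strand): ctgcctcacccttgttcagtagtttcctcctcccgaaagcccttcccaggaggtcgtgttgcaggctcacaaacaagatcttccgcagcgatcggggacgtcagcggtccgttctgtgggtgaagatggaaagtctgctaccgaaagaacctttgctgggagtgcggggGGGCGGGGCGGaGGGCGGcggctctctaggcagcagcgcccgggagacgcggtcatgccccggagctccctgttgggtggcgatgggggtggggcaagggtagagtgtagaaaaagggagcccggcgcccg
Gpam (chr19:55099428-55099727, − strand): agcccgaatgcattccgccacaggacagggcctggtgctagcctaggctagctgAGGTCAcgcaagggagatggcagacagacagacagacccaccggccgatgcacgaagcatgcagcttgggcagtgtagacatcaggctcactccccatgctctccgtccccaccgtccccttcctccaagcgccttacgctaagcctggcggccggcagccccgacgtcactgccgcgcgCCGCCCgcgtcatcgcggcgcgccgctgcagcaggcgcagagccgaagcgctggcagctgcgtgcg
Gpam (chr19:55127189-55127488, − strand): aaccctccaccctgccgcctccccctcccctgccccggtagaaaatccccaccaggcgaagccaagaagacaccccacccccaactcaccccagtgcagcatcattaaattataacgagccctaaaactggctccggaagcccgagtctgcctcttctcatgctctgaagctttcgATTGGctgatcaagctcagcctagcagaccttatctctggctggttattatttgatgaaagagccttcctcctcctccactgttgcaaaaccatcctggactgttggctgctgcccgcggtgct

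The motifs searched, on both strands, were the nuclear receptor hexamer AGGTCA, the same hexamer repeated after 1 base (bound by PPAR with RXR), the CCAAT box, the E-box CACGTG, the GC box GGGCGG and the sterol regulatory element TCACNCCAC. The Mogat1 window held 1 CCAAT box, read as ATTGG at bases 275 to 279, which lie after the annotated transcript start. A CCAAT box was present in 37.4% of all 32851 windows of that length. The Gpat3 window held 3 GC boxes within bases 170 to 187, the first 2 of which share a base, against 35.7% of all windows with at least 1. Of the Gpam windows, the first held AGGTCA, which 16.3% of all windows hold, and a GC box, and the second held a CCAAT box. The AGGTCA repeat was in 0 of the 10 windows (0.0396% of all windows), as was the sterol regulatory element (1.24% of all windows). Only exact matches to these letters within the windows were searched, so 0 matches do not show that such sites are absent. The base composition differed, with 43.7% G and C in the Mogat1 window and 64.3% in the Gpat3 window.

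In the 8-week livers, the Mogat1 signal on HFD-EPA/DHA was 7.11, 7.04, 7.20 and 6.91. On HFD-corn oil it was 7.57, 8.12 and 7.68, and the array left out had 7.34. Control livers had 6.66, 6.85, 6.62 and 6.61. The groups did not overlap, with control lowest, HFD-EPA/DHA next and HFD-corn oil highest.

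For HFD-EPA/DHA vs. control at 8 weeks, the log2 fold change of Mogat1 was 0.38 ± 0.215 (n = 4 per group, limma adjusted p = 0.725). In HFD-corn oil vs. control it was 1.10 ± 0.23, or 2.15-fold (3 mice against 4, limma adjusted p = 0.0276), and 0.99 with all 24 arrays (limma adjusted p = 0.0202). That call was lost without control replicate 2, 3 or 4 (limma adjusted p = 0.0568, 0.0857 and 0.117) and without HFD-corn oil replicate 1, 2 or 4 (limma adjusted p = 0.0839, 0.166 and 0.0726). HFD-EPA/DHA set against HFD-corn oil gave −0.73 ± 0.23 with an interval of −1.21 to −0.25, which did not pass (limma adjusted p = 0.644).

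At 12 weeks Mogat1 stood at 8.47, 8.05, 7.63 and 6.97 on HFD-EPA/DHA. It read 7.96, 7.72, 7.50 and 7.59 on HFD-corn oil. The control livers of that time had 6.47, 6.14, 6.91 and 6.95. All HFD arrays lay above all control arrays, though HFD-EPA/DHA replicate 4 was only just above the highest control array, and the HFDs overlapped each other.

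Mogat1 rose on HFD-EPA/DHA vs. control at 12 weeks by 1.16 ± 0.215 on the log2 scale, or 2.24-fold (n = 4 per group, limma adjusted p = 0.00645). With HFD-corn oil it rose by 1.07 ± 0.215, or 2.11-fold (limma adjusted p = 0.0334). The corn oil call was lost without control replicate 1 or 2 (limma adjusted p = 0.0879 and 0.165) and without HFD-corn oil replicate 1, 2, 3 or 4 (limma adjusted p = 0.140, 0.0794, 0.0635 and 0.0811). Between the HFDs the difference was 0.09 ± 0.215 (interval −0.36 to 0.53, limma adjusted p = 1).

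Ordered by group mean, Mogat1 was at 7.79 ± 0.29 on HFD-corn oil at 8 weeks, 7.78 ± 0.64 on HFD-EPA/DHA at 12 weeks, 7.69 ± 0.20 on HFD-corn oil at 12 weeks, 7.06 ± 0.12 on HFD-EPA/DHA at 8 weeks, 6.69 ± 0.11 in control at 8 weeks and 6.62 ± 0.39 in control at 12 weeks. The first 3 overlapped in their arrays, as did the control groups, and HFD-EPA/DHA at 8 weeks overlapped neither HFD-corn oil at 12 weeks nor control at 8 weeks, its neighbours in this order. Its arrays did overlap those of HFD-EPA/DHA at 12 weeks and control at 12 weeks. HFD-EPA/DHA was 0.72 ± 0.215 higher at 12 than at 8 weeks (limma adjusted p = 0.746). The change of HFD-EPA/DHA vs. control from 8 to 12 weeks was 0.78 ± 0.30 (limma adjusted p = 0.983), so a dependence on time did not pass. Averaged over both weeks, the log2 fold change was 0.77 ± 0.15 on HFD-EPA/DHA (limma adjusted p = 0.00478), with 1.09 ± 0.16 on HFD-corn oil (limma adjusted p = 0.000396). Among 22179 other genes, those with signals most like Mogat1 over the 23 arrays were Cd36, Lgals1 and Sema5b. Their root mean square differences from Mogat1, after each gene was centred on its mean, were 0.226, 0.234 and 0.26, and Mogat1 itself varied by 0.583.

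Gpat3 is a glycerol-3-phosphate acyltransferase of the endoplasmic reticulum, known mainly from adipose tissue, at chr5:100845665-100899102. In 8-week livers its signal was 8.02, 7.97, 7.82 and 7.73 on HFD-EPA/DHA. It was 7.58, 8.41 and 7.85 on HFD-corn oil, and 8.05 on the array left out. The control values were 6.63, 7.39, 7.06 and 6.66. Every HFD array was above every control array, and the HFDs overlapped.

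Gpat3 rose by 0.95 ± 0.165 (log2) on HFD-EPA/DHA vs. control at 8 weeks, or 1.93-fold (n = 4 per group, limma adjusted p = 0.00478). With HFD-corn oil vs. control the rise was 1.01 ± 0.18, or 2.02-fold (3 mice against 4, limma adjusted p = 0.00892), and 1.04 with all 24 arrays (limma adjusted p = 0.00334). The HFD-corn oil call was lost without control replicate 4 (limma adjusted p = 0.0516) and without HFD-corn oil replicate 2 (limma adjusted p = 0.0865). The HFDs differed by −0.06 ± 0.18 (HFD-EPA/DHA minus HFD-corn oil, interval −0.43 to 0.30, limma adjusted p = 0.951).

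At 12 weeks the Gpat3 signal was 7.95, 8.11, 8.18 and 7.57 on HFD-EPA/DHA. HFD-corn oil livers had 7.36, 7.33, 7.54 and 7.50. Control livers had 7.02, 6.75, 6.94 and 6.72. Here no arrays of the groups overlapped, with HFD-EPA/DHA highest and control lowest, although HFD-EPA/DHA replicate 4 and the highest HFD-corn oil array were close.

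The log2 fold change on HFD-EPA/DHA vs. control at 12 weeks was 1.10 ± 0.165, or 2.14-fold (limma adjusted p = 0.000933), and this call held in all 36 alternative settings. HFD-corn oil vs. control gave 0.57 ± 0.165, or 1.49-fold, which did not pass (limma adjusted p = 0.229). HFD-EPA/DHA vs. HFD-corn oil gave 0.52 ± 0.165 with an interval of 0.18 to 0.86 (limma adjusted p = 0.833).

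In order, Gpat3 averaged 7.95 ± 0.28 on HFD-EPA/DHA at 12 weeks, 7.95 ± 0.42 on HFD-corn oil at 8 weeks, 7.88 ± 0.14 on HFD-EPA/DHA at 8 weeks, 7.43 ± 0.10 on HFD-corn oil at 12 weeks, 6.94 ± 0.36 in control at 8 weeks and 6.86 ± 0.15 in control at 12 weeks. HFD-EPA/DHA at 8 weeks and HFD-corn oil at 12 weeks were the neighbours in this order whose arrays did not overlap. HFD-corn oil was 0.52 ± 0.18 lower at 12 than at 8 weeks (limma adjusted p = 1), and its change against control from 8 to 12 weeks was −0.44 ± 0.24 (limma adjusted p = 1). The mean of both weeks gave 1.02 ± 0.12 on HFD-EPA/DHA (limma adjusted p = 8.65e-06), with 0.79 ± 0.12 on HFD-corn oil (limma adjusted p = 0.000698). Gda, Dop1b and Flvcr2 had the signals most like Gpat3, at root mean square differences of 0.245, 0.25 and 0.267, where Gpat3 varied by 0.514.

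Gpat3 has another probe set of lower signal, with a mean of 6.73 against 7.48. Its log2 fold changes were 0.13 on HFD-EPA/DHA, and 0.19 with HFD-corn oil at 8 weeks, and 0.48 and 0.38 at 12 weeks, and none passed (limma adjusted p from 0.215 to 0.923). With the mean of both probe sets, Gpat3 on HFD-EPA/DHA vs. control at 8 weeks had 0.54 (limma adjusted p = 0.0655).

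Gpam encodes the mitochondrial glycerol-3-phosphate acyltransferase, the main one of liver that responds to insulin and Srebp-1c, at chr19:55067635-55127319. On HFD-EPA/DHA at 8 weeks it had signals of 11.35, 10.96, 11.18 and 11.19. HFD-corn oil gave 11.27, 11.49 and 12.13, and 12.23 on the array left out. Control gave 11.59, 11.71, 11.87 and 11.66. HFD-EPA/DHA arrays all lay below control, and HFD-corn oil arrays spread from the HFD-EPA/DHA range to above the control range.

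At 12 weeks Gpam was at 11.45, 11.66, 11.25 and 11.08 on HFD-EPA/DHA. The HFD-corn oil values were 12.19, 11.81, 11.63 and 11.77. Those of control were 11.54, 12.12, 12.05 and 12.20. HFD-EPA/DHA was again low, and overlapped control only through control replicate 1 and HFD-corn oil through its replicate 3.

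The log2 fold change of Gpam on HFD-EPA/DHA vs. control was −0.54 ± 0.17 at 8 weeks (limma adjusted p = 0.203) and −0.62 ± 0.17 at 12 weeks (limma adjusted p = 0.11). At 12 weeks it passed without control replicate 1 (−0.77, limma adjusted p = 0.0227) and without HFD-corn oil 8-week replicate 4 (−0.62, limma adjusted p = 0.0422). Over the mean of both weeks Gpam fell by 0.58 ± 0.12 on the log2 scale, to 0.669 of the control level (limma adjusted p = 0.0056), and this call held in all 34 alternative settings.

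HFD-corn oil vs. control gave Gpam changes of −0.08 ± 0.18 at 8 weeks and −0.13 ± 0.17 at 12 weeks (limma adjusted p = 0.952 and 0.893). HFD-EPA/DHA set against HFD-corn oil gave −0.46 ± 0.18 at 8 weeks, −0.49 ± 0.17 at 12 weeks and −0.47 ± 0.12 over both (limma adjusted p = 0.303, interval −0.73 to −0.22). From high to low, the group means were 11.98 in control at 12 weeks, 11.85 on HFD-corn oil at 12 weeks, 11.71 in control at 8 weeks, 11.63 on HFD-corn oil at 8 weeks, 11.36 on HFD-EPA/DHA at 12 weeks and 11.17 on HFD-EPA/DHA at 8 weeks, and every neighbouring pair overlapped. Rps23rg1, Tlcd1 and Dlat were most like Gpam, at root mean square differences of 0.147, 0.153 and 0.165 where Gpam varied by 0.36.

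**Figure D2:**
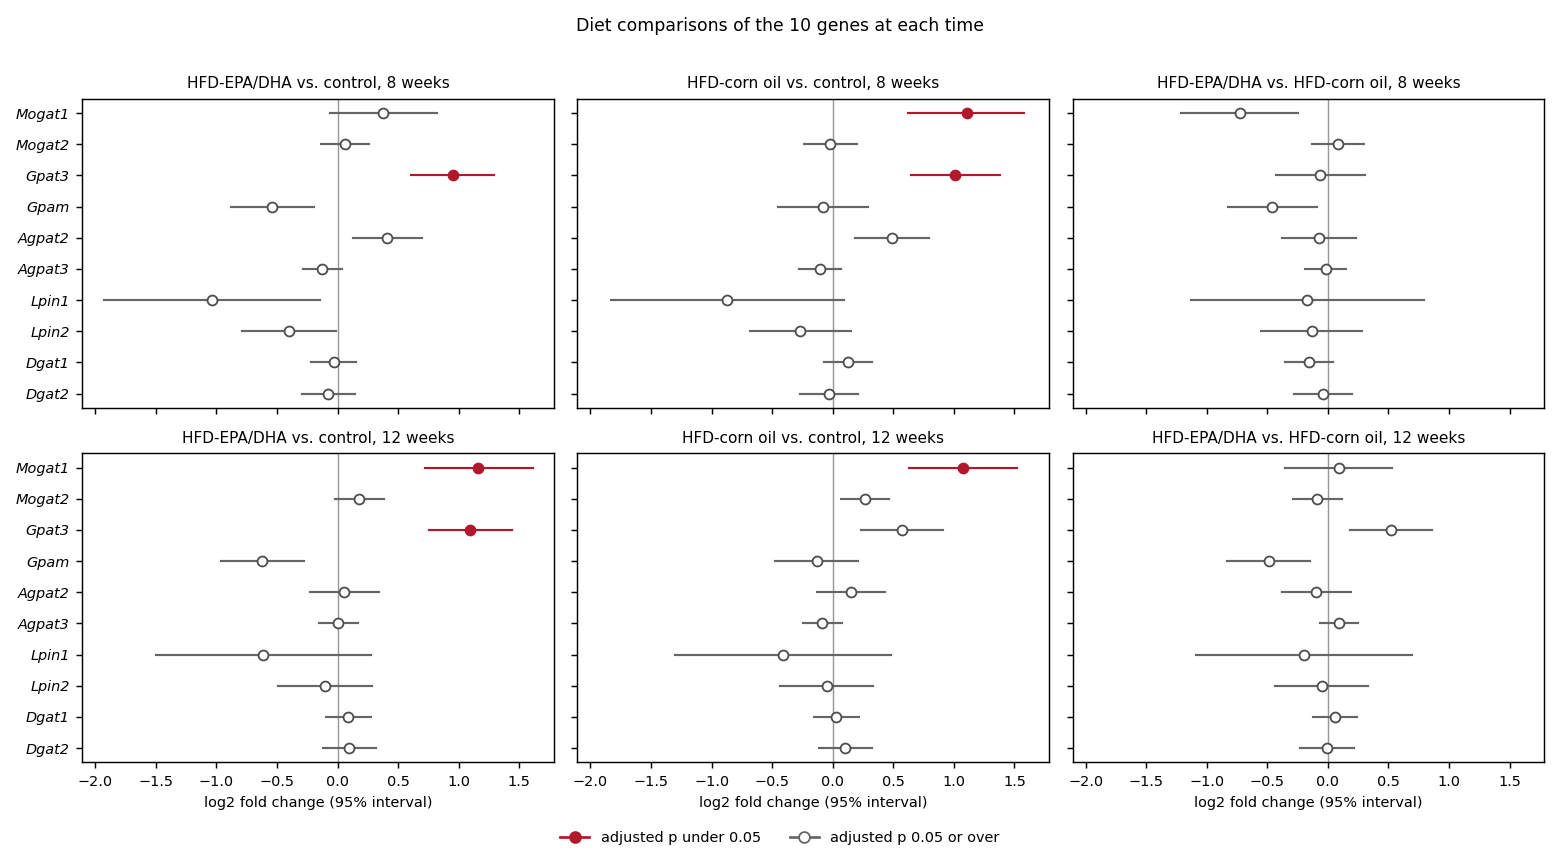
Log2 fold change (horizontal axis) of each of the 10 genes in the 6 diet comparisons, with its 95% interval. Filled red points passed an adjusted p under 0.05: Mogat1 in 3 and Gpat3 in 3 of the 4 panels of an HFD vs. control, and 0 genes between the HFDs.

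Set side by side, Mogat1 and Gpat3 accounted for every call at a single time. HFD-EPA/DHA vs. control at 8 weeks had 1 gene called (Gpat3, where 0.443% of all probe sets were called, 0.14% higher) and 4 whose arrays did not overlap control (Mogat1, Gpat3 and Agpat2 higher, Gpam lower). Of all probe sets 4.15% did not overlap there, 1.96% higher and 2.19% lower. HFD-corn oil vs. control at 8 weeks had 2 called (0.738% of all probe sets, 0.177% higher) and 4 without overlap (Mogat1, Gpat3 and Agpat2 higher, Lpin2 lower), where 9.13% of all probe sets did not overlap, 3.27% higher and 5.87% lower. At 12 weeks, HFD-EPA/DHA vs. control had 2 called (0.617% of all probe sets, 0.3% higher) and HFD-corn oil vs. control 1 (0.179% of all probe sets, 0.106% higher). Mogat1 and Gpat3 were also the 2 genes without overlap in each of these, where 4.91% and 4.59% of all probe sets did not overlap (2.28% and 2.09% higher).

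Between the HFDs limma called 0 of the 10 genes at 8 weeks, 0 at 12 weeks and 0 over both (0.0266%, 0.00967% and 0.0653% of all probe sets were called). At an unadjusted p under 0.05 there were 2 at 8 weeks (Mogat1 and Gpam), 2 at 12 weeks (Gpat3 and Gpam) and 1 over both (Gpam). Of all probe sets, at least 1769 and fewer than 3992 passed that threshold at 8 weeks, and fewer than 2180 at 12 weeks. Over both, at least 1849 and fewer than 3388 passed. These are bounds, as exact counts at that threshold are not given here. The gene without overlap was Mogat1 at 8 weeks, lower on HFD-EPA/DHA, and Gpat3 at 12 weeks, higher on HFD-EPA/DHA (7.72% and 2.9% of all probe sets did not overlap, 2.42% lower at 8 weeks and 1.55% higher at 12 weeks). Changes of the diet comparisons with time were called by limma for 0 of the 10 genes and 0% of all probe sets. At an unadjusted p under 0.05 there were 1 for HFD-EPA/DHA vs. control (Mogat1), 0 for HFD-corn oil vs. control, and 2 between the HFDs, where the change was 0.81 ± 0.32 for Mogat1 and 0.59 ± 0.24 for Gpat3 (limma adjusted p = 0.997 for each). Of all probe sets, 1623 or more but fewer than 3061 passed that threshold for HFD-EPA/DHA vs. control. For HFD-corn oil vs. control 1437 or more but fewer than 1607 did, and between the HFDs 588 or more but fewer than 2414. Within a diet, limma called 0 of the 10 genes at 12 vs. 8 weeks on HFD-EPA/DHA, HFD-corn oil or control, where 0%, 0% and 0.00967% of all probe sets were called. The unadjusted p was under 0.05 for Mogat1 on HFD-EPA/DHA, Gpat3 on HFD-corn oil, and Mogat2 and Agpat2 in control. Of all probe sets, fewer than 5088 passed that threshold on HFD-EPA/DHA. At least 1154 and fewer than 1512 did so on HFD-corn oil, and at least 2633 and fewer than 3507 in control. The arrays of 12 and 8 weeks did not overlap for 0, 1 (Gpat3, lower) and 1 (Mogat2, lower) of the 10 genes on these diets, against 2.81%, 4.68% (1.86% lower) and 3.68% (1.73% lower) of all probe sets.

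Mogat2, the monoacylglycerol acyltransferase of enterocytes, had a signal below the median of all probe sets and was called in no comparison. Its group means ran from 6.64 to 6.96, and its largest fold change against control was 0.27 ± 0.10 on HFD-corn oil at 12 weeks (limma adjusted p = 0.398). All 6 enterocyte markers measured also lay below the median of all probe sets. Mogat2 (chr7:99219084-99238611) lies next to Dgat2 (chr7:99153663-99182713), a gene of the same protein family.

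Agpat2 makes phosphatidic acid in liver and fat, and its loss causes lipodystrophy in humans and mice. At 8 weeks it had 11.88, 12.01, 11.68 and 11.78 on HFD-EPA/DHA. HFD-corn oil livers had 11.85, 11.73 and 12.15, with 12.30 on the array left out. Control livers had 11.09, 11.58, 11.39 and 11.63. Both HFDs were above control without overlap, by 0.41 ± 0.14 (limma adjusted p = 0.276) and 0.49 ± 0.15 (limma adjusted p = 0.183), and neither passed. With all 24 arrays the HFD-corn oil value was 0.58 (limma adjusted p = 0.0485). With a score of circadian clock genes as a covariate, the HFD-EPA/DHA value was 0.22 ± 0.13 (limma adjusted p = 0.888). The HFD-corn oil value was then 0.41 ± 0.13 (limma adjusted p = 0.202).

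At 12 weeks the Agpat2 groups overlapped, with means of 11.85 ± 0.19 on HFD-EPA/DHA, 11.94 ± 0.23 on HFD-corn oil and 11.79 ± 0.22 in control. Control livers were 0.37 ± 0.14 higher at 12 than at 8 weeks (limma adjusted p = 0.608). Agpat3, an acyltransferase with a preference for polyunsaturated acyl chains, had the smallest within-group SD of the 10 genes, 0.0887, and group means of 11.25 to 11.38. Its largest diet difference was −0.13 ± 0.08 on HFD-EPA/DHA at 8 weeks (limma adjusted p = 0.757).

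Lpin1 is a phosphatidate phosphatase that also acts in the nucleus as a coactivator of fatty acid oxidation genes. It had the widest spread among mice of a group, a within-group SD of 0.713. On HFD-EPA/DHA at 8 weeks its signals were 10.47, 9.72, 11.84 and 12.23. On HFD-corn oil they were 11.79, 11.0 and 10.91, and 11.48 on the array left out. Control mice had 11.89, 12.50, 11.77 and 12.25. Replicates 1 and 2 of HFD-EPA/DHA were low, and the other two lay within the control range.

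At 12 weeks Lpin1 was at 11.47, 11.20, 10.67 and 10.73 on HFD-EPA/DHA. It was at 11.60, 12.11, 11.0 and 10.17 on HFD-corn oil. It was at 11.63, 10.74, 12.03 and 12.13 in control. The groups overlapped in every comparison. The log2 fold changes on HFD-EPA/DHA vs. control were −1.04 ± 0.43 at 8 weeks and −0.61 ± 0.43 at 12 weeks (limma adjusted p = 0.49 and 0.789), and those on HFD-corn oil were −0.87 ± 0.47 and −0.41 ± 0.43 (limma adjusted p = 0.668 and 0.867).

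Lpin2, a lipin prominent in liver, had fold changes of −0.40 ± 0.19 on HFD-EPA/DHA, and −0.27 ± 0.20 with HFD-corn oil at 8 weeks, and −0.10 ± 0.19 and −0.05 ± 0.19 at 12 weeks (limma adjusted p from 0.59 to 0.971). Its other probe set gave −0.18, −0.35, −0.07 and −0.15 in the same order. Replicate 2 of HFD-EPA/DHA at 8 weeks was the lowest array for both lipins, at 9.72 for Lpin1 and 10.66 for Lpin2.

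Genes of the circadian clock moved with Lpin2 and Dgat2 from mouse to mouse within a group, but both calls were lost when HFD-EPA/DHA 8-week replicate 2 was left out. A clock score was taken per array as the mean centred signal of Arntl, Npas2 and Clock minus that of Dbp, Tef, Per3, Nr1d1, Nr1d2 and Ciart, which peak at the opposite time. The mice had been killed on consecutive mornings, after food had been removed early in the morning, and not every diet was taken each day. Day and hour of killing are not given per mouse, so their part in the differences between diets, in signal or score, was not tested. At 8 weeks the score ran from −2.28 to 2.54 on HFD-EPA/DHA, from −2.38 to 0.24 on HFD-corn oil and from −2.28 to −0.48 in control. At 12 weeks it ran from −0.11 to 1.19 on HFD-EPA/DHA, from −1.16 to 1.28 on HFD-corn oil and from 0.70 to 2.21 in control, so control livers of the 2 experiments did not overlap in score.

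Scores spread most on HFD-EPA/DHA at 8 weeks, at 0.74, 2.54, −2.28 and −0.35. Their Lpin2 signals were 11.34, 10.66, 11.62 and 11.59. Their Dgat2 signals were 12.06, 11.70, 12.39 and 12.21. Both genes were lowest in the mouse with the highest score and highest in the mouse with the lowest. Over all 23 arrays Lpin2 ran from 10.66 to 11.91 and Dgat2 from 11.70 to 12.39.

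Within groups, limma called a slope on the clock score for 2 of the 10 genes (1.2% of all probe sets were called). The slopes were −0.20 ± 0.04 per unit of score for Lpin2 (limma adjusted p = 0.00653) and −0.12 ± 0.02 for Dgat2 (limma adjusted p = 0.00396). That of Lpin1 was larger and less precise, at −0.39 ± 0.10 (limma adjusted p = 0.0501). It passed without control 8-week replicate 3 or 4, HFD-EPA/DHA 8-week replicate 4, HFD-corn oil 8-week replicate 1 or 2, control 12-week replicate 3 or HFD-corn oil 12-week replicate 1 (limma adjusted p from 0.0148 to 0.0479), and over all arrays left out in turn the adjusted p ran up to 0.253. Without HFD-EPA/DHA 8-week replicate 2, which had the highest score, the calls of Lpin2 (−0.16, limma adjusted p = 0.0992) and Dgat2 (−0.09, limma adjusted p = 0.0796) were lost, and that of Dgat2 also without HFD-EPA/DHA 8-week replicate 3 (−0.11, limma adjusted p = 0.0544). The slopes of Mogat1, Gpat3 and Gpam were −0.10 ± 0.06, −0.04 ± 0.05 and 0.01 ± 0.05, and none passed.

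With the score in the model, the Lpin1 log2 fold changes on HFD-EPA/DHA vs. control were −0.33 ± 0.38 at 8 weeks and −0.94 ± 0.35 at 12 weeks (limma adjusted p = 0.995 and 0.363). For HFD-corn oil they were −0.58 ± 0.37 and −0.98 ± 0.37 (limma adjusted p = 0.696 and 0.484). Mogat1 on HFD-corn oil vs. control at 12 weeks was 0.93 with the score in the model and no longer passed (limma adjusted p = 0.146). The other calls of Mogat1, Gpat3 and Gpam held with it.

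For Lpin2, the values with the score in the model were −0.04 ± 0.14 for HFD-EPA/DHA vs. control and −0.12 ± 0.14 for HFD-corn oil vs. control at 8 weeks. At 12 weeks they were −0.27 ± 0.13 and −0.33 ± 0.14 in the same order, and none passed (limma adjusted p from 0.576 to 0.999). The Lpin2 values were thus nearer to 0 with the score at 8 weeks and farther from 0 at 12 weeks. Agpat2 had a slope of 0.11 ± 0.03 that did not pass (limma adjusted p = 0.152), and with the score its value for HFD-corn oil vs. control over both weeks was 0.36 ± 0.09 (limma adjusted p = 0.028).

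**Figure D3:**
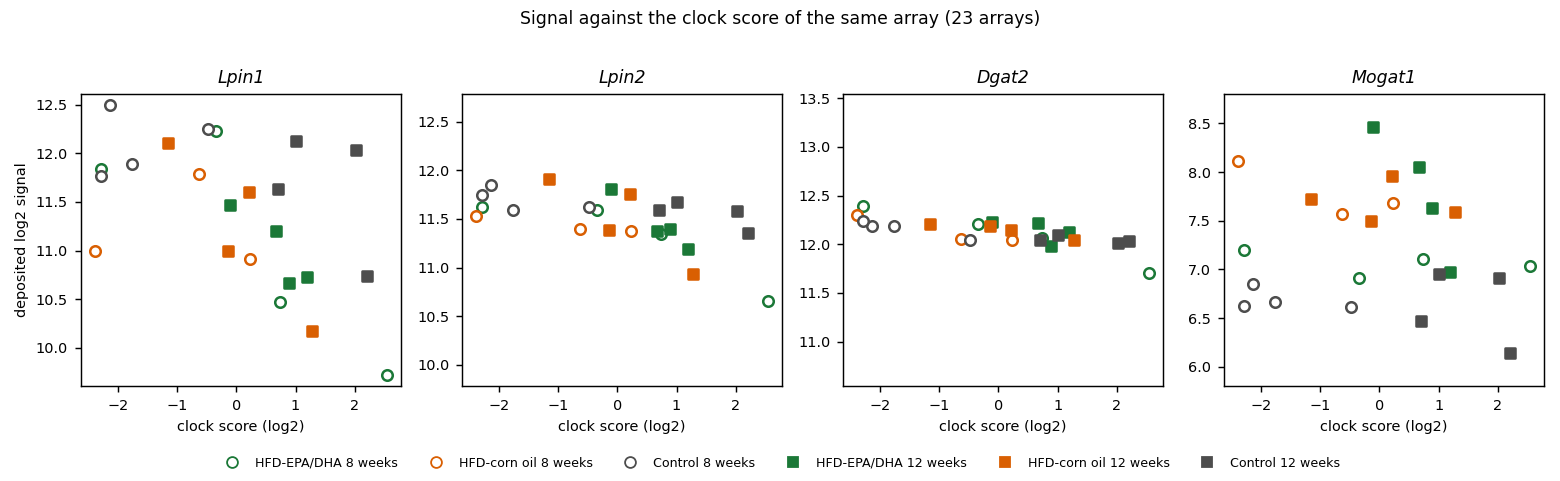
Deposited log2 signal (vertical axis, the same span of 3 units in each panel) of Lpin1, Lpin2, Dgat2 and Mogat1 against the clock score of the same array (horizontal axis, log2), 1 point per mouse for the 23 arrays fitted. Within groups the signals of Lpin2 and Dgat2 were lower on arrays with a high score (slopes −0.20 and −0.12 per unit). Both calls were lost without HFD-EPA/DHA 8-week replicate 2.

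Dgat1 and Dgat2 catalyse the last step, Dgat2 being the enzyme tied to newly made fatty acids in liver. Neither was called in a diet comparison. Over all 23 arrays the signal of Dgat1 ran from 9.67 to 10.13, and its groups overlapped in every comparison, as did those of Dgat2. Over the 6 comparisons of diets within a time, the log2 fold change of Dgat1 ran from −0.16 ± 0.10 to 0.13 ± 0.10 and that of Dgat2 from −0.08 ± 0.11 to 0.10 ± 0.11. For the mean of both weeks, the 95% interval of Dgat2 was −0.15 to 0.17 on HFD-EPA/DHA vs. control and −0.13 to 0.20 on HFD-corn oil vs. control, and that of Dgat1 was −0.10 to 0.16 and −0.06 to 0.22. With the clock score in the model, Dgat2 on HFD-EPA/DHA vs. control at 8 weeks was 0.14 ± 0.08, against −0.08 ± 0.11 without it, and on HFD-corn oil vs. control at 12 weeks it was −0.06 ± 0.08, against 0.10 ± 0.11 without it (limma adjusted p = 0.876 and 0.94 with the score).

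Other enzymes of the same route were described beside the 10 genes. Over the mean of both weeks on HFD-EPA/DHA vs. control, 2 of 12 other enzymes of the glycerol phosphate pathway were called higher and 0 lower, where 2.1% of all probe sets were called (0.774% higher and 1.33% lower). The called enzymes were Gpat4, another acyltransferase of the endoplasmic reticulum (0.33 ± 0.08, limma adjusted p = 0.0203), and Lclat1, which acylates lysocardiolipin (0.23 ± 0.06, limma adjusted p = 0.0298). On HFD-corn oil limma called 0 of the 12, with 4 at an unadjusted p under 0.05, and between the HFDs it called 0, with 0 at an unadjusted p under 0.05. The median log2 fold change of the 12 was 0.07 on HFD-EPA/DHA vs. control. Of 6 genes of glycerol supply, limma called 0 in each of these comparisons (1, 2 and 0 at an unadjusted p under 0.05). Gk had no probe set of a single symbol and is not among the 6. Of 9 lysophospholipid acyltransferases limma also called 0 (0, 1 and 3 at an unadjusted p under 0.05). On HFD-EPA/DHA vs. control over both weeks, at least 3875 and fewer than 4352 of all probe sets passed that unadjusted threshold. At least 4743 and fewer than 6403 did so on HFD-corn oil vs. control. Between the HFDs at least 1849 and fewer than 3388 did. Whether a list differed from all probe sets in these counts was not tested.

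Fatty acids must be joined to coenzyme A before an acyltransferase can use them. The list of genes for this activation lacked Acsl1 and Acsl3, which had no probe set of a single symbol. Of its 7 genes, over both weeks 1 was called higher and 2 were called lower for HFD-EPA/DHA vs. control (0.774% and 1.33% of all probe sets). The median log2 fold change of the 7 was 0.06. Limma called 0 on HFD-corn oil and 0 between the HFDs (2 at an unadjusted p under 0.05 in each). At least 4743 and fewer than 6403 of all probe sets passed that unadjusted threshold on HFD-corn oil. Between the HFDs at least 1849 and fewer than 3388 passed it. Acsl5 and Acsl4, acyl-CoA synthetases, fell by 0.38 ± 0.08 and 0.40 ± 0.10 on the log2 scale (limma adjusted p = 0.011 and 0.0353). Slc27a1, a fatty acid transport protein, rose by 0.48 ± 0.11 (limma adjusted p = 0.0174).

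Diacylglycerol and phosphatidic acid also feed the phospholipids. Of 16 genes of phospholipid synthesis, over both weeks 1 was called higher and 2 were called lower for HFD-EPA/DHA vs. control (0.774% and 1.33% of all probe sets), and 1 was called higher on HFD-corn oil (0.745% of all probe sets), with medians of 0.07 and 0.05. Pcyt2, the rate-limiting enzyme for phosphatidylethanolamine, fell by 0.48 ± 0.07 at 8 weeks and 0.37 ± 0.07 at 12 weeks on HFD-EPA/DHA (limma adjusted p = 0.000809 and 0.00689), and was lower there than on HFD-corn oil over both weeks (−0.29 ± 0.05, limma adjusted p = 0.0189). Pemt, which turns phosphatidylethanolamine into phosphatidylcholine, fell on HFD-EPA/DHA vs. control over both weeks by 0.22 ± 0.05 on the log2 scale (limma adjusted p = 0.023). Chpt1, a cholinephosphotransferase that uses diacylglycerol, rose by 0.40 ± 0.07 with HFD-EPA/DHA and by 0.48 ± 0.08 with HFD-corn oil over both weeks (limma adjusted p = 0.00232 and 0.000974).

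On the breakdown side, 3 of 14 genes of triglyceride lipolysis were called higher and 1 lower on HFD-EPA/DHA vs. control over both weeks (0.774% and 1.33% of all probe sets), and 1 was called higher on HFD-corn oil (0.745% of all probe sets), with medians of −0.05 and 0.09. Between the HFDs limma called 0 (5 at an unadjusted p under 0.05, as were at least 1849 and fewer than 3388 of all probe sets). Pnpla3, a lipid droplet protein with lipase and acyltransferase activity, fell by 1.96 ± 0.29 on the log2 scale on HFD-EPA/DHA (limma adjusted p = 0.000216). Abhd6, a monoacylglycerol hydrolase that uses the same substrate as Mogat1, rose by 0.57 ± 0.08 with HFD-EPA/DHA and by 0.35 ± 0.08 with HFD-corn oil (limma adjusted p = 5.36e-05 and 0.0188). The carboxylesterases Ces2a and Ces1d rose on HFD-EPA/DHA by 0.45 ± 0.07 and 0.32 ± 0.07 (limma adjusted p = 0.000247 and 0.0202).

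Of 17 transcriptional regulators of lipid metabolism, over both weeks 1 was called higher and 1 was called lower for HFD-EPA/DHA vs. control (0.774% and 1.33% of all probe sets), and 2 were called higher and 1 lower on HFD-corn oil (1.91% of all probe sets in either direction). Between the HFDs limma called 0 (3 at an unadjusted p under 0.05, as were at least 1849 and fewer than 3388 of all probe sets). Pparg, the nuclear receptor that drives fat storage, rose by 1.10 ± 0.14 on HFD-corn oil (limma adjusted p = 7.53e-05), and on HFD-EPA/DHA it was at 0.44 ± 0.14 (limma adjusted p = 0.116). Between the HFDs Pparg differed by −0.67 ± 0.14, which did not pass (limma adjusted p = 0.0925). Srebf1, the regulator of fatty acid synthesis and of Gpam, rose by 0.82 ± 0.17 on HFD-corn oil (limma adjusted p = 0.0101) and was at 0.47 ± 0.16 on HFD-EPA/DHA (limma adjusted p = 0.204). Srebf2, which controls sterol synthesis, fell on the log2 scale by 0.49 ± 0.10 with HFD-EPA/DHA, and by 0.43 ± 0.10 with HFD-corn oil (limma adjusted p = 0.00513 and 0.0241). Nr1i3, the xenobiotic receptor Car, rose by 0.77 ± 0.17 on HFD-EPA/DHA (limma adjusted p = 0.00951).

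**Figure D4:**
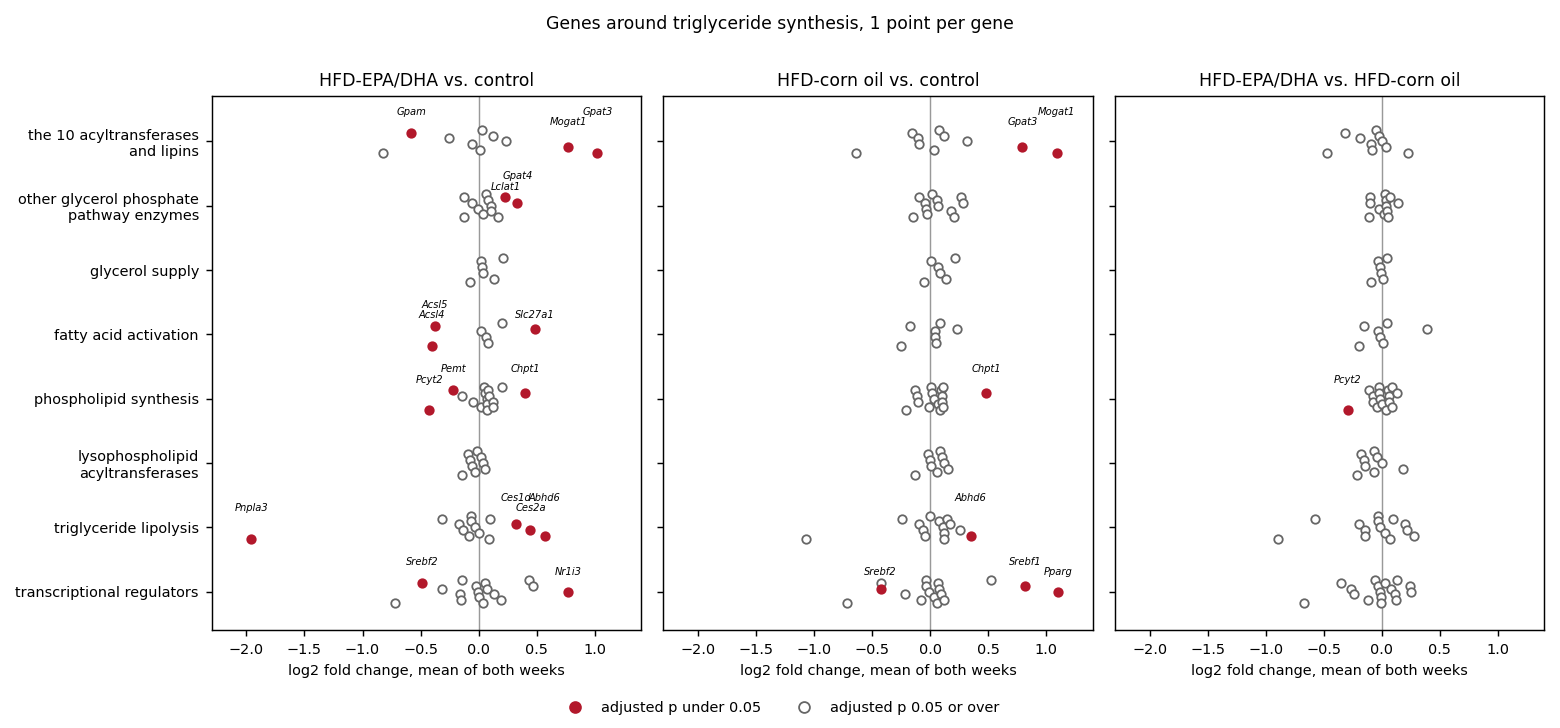
Log2 fold change over the mean of both weeks (horizontal axis) of the 10 genes and of 7 neighbouring gene lists in the 3 diet comparisons, 1 point per gene, with genes that passed an adjusted p under 0.05 filled and named. Pparg, Mogat1, Srebf1 and Gpat3 were the named genes farthest to the right on HFD-corn oil vs. control, and between the HFDs Pcyt2 was the named gene.

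Gpat3 is also known from fat cells, and markers of adipocytes were checked beside it. Of 5 adipocyte markers limma called 0 on either HFD vs. control over both weeks (2 at an unadjusted p under 0.05 on each), and 1 of the 5 lay below the median of all probe sets. At least 3875 and fewer than 4352 of all probe sets passed that unadjusted threshold on HFD-EPA/DHA. On HFD-corn oil at least 4743 and fewer than 6403 passed it. Adipoq and Plin1 had log2 fold changes of 0.11 and 0.04 on HFD-EPA/DHA and −0.07 and −0.08 on HFD-corn oil. Plin4, a lipid droplet protein, was at 0.49 ± 0.21 on HFD-EPA/DHA and, with HFD-corn oil, at 0.72 ± 0.22 (limma adjusted p = 0.407 and 0.109). Retn, the adipokine resistin, was at 0.45 ± 0.15 and 0.28 ± 0.16 (limma adjusted p = 0.161 and 0.5), and Lep, the adipokine leptin, at 0.02 ± 0.08 and 0.22 ± 0.08 (limma adjusted p = 0.977 and 0.207), in the same order. The markers at an unadjusted p under 0.05 were Retn and Plin4 on HFD-EPA/DHA, and Lep and Plin4 on HFD-corn oil. The mean of the list per array was 6.98 to 7.75 on HFD-EPA/DHA, 7.20 to 7.43 on HFD-corn oil and 6.99 to 7.27 in control at 8 weeks. At 12 weeks it was 7.20 to 7.48, 7.20 to 7.48 and 7.08 to 7.26 in the same order. The part of adipocyte RNA in the changes of Mogat1 and Gpat3 was not tested.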

How the data were processed

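Liver RNA of single mice was measured on whole-transcript mouse arrays (GeneChip Mouse Gene 2.0 ST). The authors made the deposited log2 signals from the scans with iter-PLIER, quantile normalization and perfect match probes in Affymetrix Expression Console 1.3. The table does not name its scale, which was read as log2 from values of 4.39 to 13.93 and array medians of 7.14 to 7.21. The number of arrays limits the precision. Quantile normalization assumes alike distributions, so a change shared by most transcripts would not be seen.

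Groups and replicate numbers came from the labels. In limma 3.58.1 under R 4.3.3, the 23 arrays were fitted with a mean for each group (15 comparisons, eBayes, two-sided), and p-values were corrected by the method of Benjamini and Hochberg across all 41345 probe sets with a threshold of 0.05. These p-values measure the spread between these mice, and cages and days of killing are not identified. The same replicate number does not mark a pair: over 55 such pairs of arrays, deviations from the group means correlated at −0.31 to 0.26, and 7 arrays correlated best with their own number. No arrays were identical.

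The 10 genes and the neighbouring lists were chosen with earlier results of these data known. Beyond the 10 genes, the text names up to 4 called genes of each list per comparison, by smallest p, and the 3 genes most like each called gene. Per2 had no probe set of a single symbol and is not in the clock score. For the same reason Acsl1, Acsl3, Gk, Chkb, Etnk2, Cept1, Lipc, Nr1h2, Cfd, Pnlip, Amy2a5 and Spp1 are not in their lists. The slopes on the clock score and their values with single arrays left out were added once values had been seen. Promoter windows and loci are those of RefSeq on GRCm38.p6.

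The alternatives were all 24 arrays, with and without array weights, an offset of 16, linear signals, other sets of probe sets, arrays and normalization, the replicate block, eBayes with a trend and robust variances, the clock score as a covariate, the mean of each gene's probe sets, and each array left out. Scripts were tested on simulated data. Files were read with version 1.17.8 of data.table, and matplotlib 3.10.9 under Python 3.11.15 drew the figures.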

Additional observations from a re-analysis of the deposited data

How the results depend on the processing

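No fold change of the 10 genes that had been called changed direction in any alternative. Gpat3 on HFD-EPA/DHA vs. control at 12 weeks stayed called in all 36 settings. Over the mean of both weeks, the calls of Gpat3 and Gpam on HFD-EPA/DHA and of Mogat1 and Gpat3 on HFD-corn oil stayed in all 34 settings, and that of Mogat1 on HFD-EPA/DHA was lost on linear signals alone (limma adjusted p = 0.0785). The calls at a single time were less firm. On linear signals the count of the 10 genes called fell to 0 for HFD-EPA/DHA vs. control at 8 weeks (1 in the text), to 0 for HFD-corn oil vs. control at 8 weeks (2 in the text), to 1 for HFD-EPA/DHA vs. control at 12 weeks (2 in the text) and to 0 for HFD-corn oil vs. control at 12 weeks (1 in the text). For HFD-corn oil vs. control at 12 weeks it was 0 with the arrays of that time alone, with trend and robust settings, and with the clock score as a covariate. For HFD-corn oil vs. control at 8 weeks it was 1 with the arrays of the 2 groups alone and 1 with trend and robust settings. It was also 1 there with the replicate block, under which Mogat1 kept a log2 fold change of 1.105 (limma adjusted p = 0.0513) and 103 of all probe sets were called (305 without the block). The block changed no other count of the 10 genes. HFD-EPA/DHA vs. control had 1 at 12 weeks with the arrays of the 2 groups alone and 0 at 8 weeks with the mean over probe sets. With single arrays left out, the count ran from 0 to 2 for HFD-corn oil vs. control at 8 weeks, from 0 to 1 at 12 weeks and from 2 to 3 for HFD-EPA/DHA vs. control at 12 weeks. Agpat2 on HFD-corn oil vs. control passed over the mean of both weeks with the clock score as a covariate (0.36, limma adjusted p = 0.028). The cause of these changes was not tested.

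Over all probe sets, the counts called moved more. They ran from 118 to 348 in the alternatives and 89 to 373 with single arrays left out for HFD-EPA/DHA vs. control at 8 weeks (183 as reported), from 97 to 567 and 30 to 476 for HFD-corn oil vs. control at 8 weeks (305), from 147 to 320 and 151 to 295 for HFD-EPA/DHA vs. control at 12 weeks (255), and from 27 to 105 and 28 to 90 for HFD-corn oil vs. control at 12 weeks (74). Between the HFDs they ran from 0 to 13 and 4 to 13 at 8 weeks (11), from 1 to 8 and 4 to 6 at 12 weeks (4) and from 16 to 42 and 14 to 37 over both (27). For HFD-corn oil vs. control over both weeks they were 592 to 1058 and 466 to 856 (791), and for control at 12 vs. 8 weeks 0 to 39 and 0 to 25 (4). Mogat1, Mogat2 and Gpat3 had the lowest signals of the 10 genes, at percentiles 52.6, 39.4 and 58.9 of all probe sets, and no detection call was used here.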

Other observations

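The array of HFD-corn oil at 8 weeks that was left out had 4 of the 10 genes above all 23 other arrays and 0 below them. Of all 41345 probe sets, 20.7% lay above and 18.9% below all others on that array. These were Mogat2 at 7.12 (highest of the others 7.10), Gpam at 12.23 (12.20), Agpat2 at 12.30 (12.24) and Dgat1 at 10.52 (10.13). Mogat1 at 7.34 and Gpat3 at 8.05 lay within the range of the other arrays. Mogat1 stood below, and Gpat3 within, the values of the 3 other mice of its group.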
